A study of Mus musculus with 33 samples.

Results

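The Hox genes described here are 10 members of 2 gene clusters, Hoxa3, Hoxa5, Hoxa6, Hoxa7, Hoxa9 and Hoxa10 of the Hoxa cluster and Hoxb2, Hoxb3, Hoxb4 and Hoxb5 of the Hoxb cluster. They were chosen by symbol, and all 10 were found once each among the 55376 gene symbols counted in every library. Hematopoietic stem cells (HSCs), granulocyte-monocyte progenitors (GMPs) and common lymphoid progenitors (CLPs) had been sorted from the bone marrow of male C57BL/6 mice of 24 to 29 months, either untreated (O-WT) or given nicotinamide riboside (NR), a precursor of NAD+, in the drinking water for 4 to 6 weeks (O-NR). The labels divide the 33 total RNA-seq libraries into cohort 2, with 4 O-WT and 4 O-NR libraries of each of the 3 cell types, and cohort 1, with HSCs only (O-WT in 2 libraries, O-NR in 4, and 3 libraries of mice sorted 2 months after NR was withdrawn, O-NR-RC). All mice were old, and no young mice were sequenced in these libraries. HSCs were gated as lineage-negative, cKit and Sca1 positive, CD34 and Flk2 negative and CD150 positive cells, CLPs by Il7ra and Flk2, and GMPs by cKit, CD34 and Fcgr without Sca1. One label field names the GMP libraries as common myeloid progenitors, whereas their titles name GMPs. No source states that each library is 1 mouse, so p-values measure the spread between these libraries.

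Hox genes encode homeodomain transcription factors that lie in a fixed order along their chromosomes. The genes at the 3′ end of a cluster (low numbers) are active in anterior and those at the 5′ end (high numbers) in posterior parts of the embryo, and many bind DNA together with the TALE homeodomain proteins of the Pbx and Meis families. In blood, Hoxa9 and Hoxa10 promote the self-renewal of stem and early progenitor cells and are kept active in many leukemias by fusions of the MLL protein. Hoxb4 is known for expanding HSCs when it is overexpressed, and Hoxb5 is used as a marker of long-term HSCs. The repressive Polycomb complexes act against the MLL proteins at both clusters.

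In the Gencode annotation of GRCm38 (mm10), the Hoxa cluster covers 105.3 kb of chromosome 6 with 11 Hox genes, all members being on the minus strand, and the Hoxb cluster covers 173.9 kb of chromosome 11 with 10 Hox genes, all members being on the plus strand. Hoxa10 (chr6:52231197-52240854) and Hoxa9 (chr6:52223100-52231089) lie farthest to the 5′ side among the Hoxa members. The annotated span of Hoxa3 (chr6:52169062-52213336) holds the genes Hoxa5 and Hoxa6. In the Hoxb cluster the order from the 5′ side is Hoxb5 (chr11:96303336-96306121), Hoxb4 (chr11:96318267-96321638), Hoxb3 (chr11:96323326-96347930) and Hoxb2 (chr11:96350525-96354012). Between these genes lie microRNAs that are transcribed with the clusters and target Hox mRNAs. The mature forms of 3 of them from RefSeq (GRCm38.p6) are shown as landmarks of cluster position, 5′ to 3′, with the seed (bases 2 to 8) in capitals.
miR-196b-5p: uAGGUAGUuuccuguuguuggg
miR-196a-5p: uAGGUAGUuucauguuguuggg
miR-10a-5p: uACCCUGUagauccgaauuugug
The pair of miR-196 sequences, one from each cluster, share their seed. miR-196b (chr6:52230129-52230150, minus strand) lies in an exon of Hoxa9, miR-196a (chr11:96265187-96265208, plus strand) on the 5′ side of Hoxb5, and miR-10a (chr11:96317186-96317208, plus strand) between Hoxb5 and Hoxb4. These libraries do not measure mature microRNAs, and the hairpin genes held at most 0, 30 and 26 reads in any library, in the order shown.

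RefSeq start sites gave promoter windows for 7 of the 10 members, in 8 windows because Hoxa10 has a pair of starts. The 250 bases before a start are shown for Hoxa9, the member with the highest mean count in O-WT HSCs, for Hoxa10, the Hoxa member with the widest difference between HSCs and GMPs, and for Hoxb4, the member that held up best in GMPs among the Hoxb genes. Each is written 5′ to 3′ on the strand of the gene, and capitals mark a CCAAT box (CCAAT), a GC box (GGGCGG) or a TATA box (TATAAA), searched on both strands.
Hoxa9: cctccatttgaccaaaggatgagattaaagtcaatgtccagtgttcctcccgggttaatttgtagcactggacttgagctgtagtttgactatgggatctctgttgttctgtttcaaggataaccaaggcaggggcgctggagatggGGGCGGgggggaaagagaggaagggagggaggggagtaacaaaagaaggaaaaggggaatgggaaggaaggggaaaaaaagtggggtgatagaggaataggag
Hoxa10: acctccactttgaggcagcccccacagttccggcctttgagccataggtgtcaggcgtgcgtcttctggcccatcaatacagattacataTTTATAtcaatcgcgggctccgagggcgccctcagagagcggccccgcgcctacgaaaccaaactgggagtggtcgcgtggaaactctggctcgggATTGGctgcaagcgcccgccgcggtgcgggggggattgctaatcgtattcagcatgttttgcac
Hoxb4: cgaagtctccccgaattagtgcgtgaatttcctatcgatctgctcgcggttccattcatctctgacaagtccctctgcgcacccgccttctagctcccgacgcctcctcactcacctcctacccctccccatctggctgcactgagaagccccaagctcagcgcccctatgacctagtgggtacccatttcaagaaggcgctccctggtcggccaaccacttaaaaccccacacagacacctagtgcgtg
The Hoxa9 window (chr6:52227371-52227620) and the Hoxa10 window (chr6:52234940-52235189) lie within introns of the longer transcripts of these genes, and the Hoxb4 window (chr11:96318017-96318266) ends at the annotated gene start. The Hoxa9 window held 1 GC box 103 bases before the start and 3 CpG dinucleotides. The Hoxa10 window held, on the opposite strand, 1 CCAAT box 64 bases and 1 TATA box 160 bases before the start, and 20 CpGs. The other Hoxa10 window (chr6:52240855-52241104), at the annotated gene start, held 1 GC box 90 bases before the start, 7 CpGs and neither of the other motifs. The Hoxb4 window held 14 CpGs and none of these motifs. The median over 32851 promoters was 6 CpGs. Among the 8 member windows 3 held CCAAT, 3 held GGGCGG and 1 held TATAAA, against 33.8%, 32.7% and 12.4% of all promoter windows of this length. A Hox-Pbx site (TGATTNAT) was in 0 and a Meis site (TGACAG) in 1 of the 8 windows, against 2.82% and 15.9% of all windows.

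Between 4792380 and 18213674 reads were counted on genes per library of cohort 2 and between 8897256 and 23816042 in cohort 1. The markers of the sorted cell types were highest in the libraries labelled as such. The 8 HSC markers summed to 1010 to 1916 CPM (counts scaled to the library total) in the HSC libraries of cohort 2 and to at most 96.8 CPM in CLPs and GMPs, the 8 CLP markers to 1677 to 4598 CPM in CLPs and the 8 GMP markers to 18535 to 24286 CPM in GMPs. Levels below are CPM on library totals scaled with the TMM method, and genes are compared with each other only as CPM per kilobase of exon. In bulk samples, fewer cells with a transcript and less of it per cell cannot be told apart.

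All 10 members were highest in HSCs, and the width of the difference varied with the gene. In O-WT libraries, Hoxa9 and Hoxa7 were still well counted in both progenitors. Hoxa9 had 60.5, 38.2, 41.5 and 46.8 CPM in the 4 HSC libraries, 30.3, 24.8, 23.3 and 33.9 CPM in CLPs and 23.7, 24.3, 19.5 and 18.6 CPM in GMPs. The lowest HSC library was above every progenitor library, whereas CLPs and GMPs overlapped. Hoxa7, its neighbor on the 3′ side, had 52.2, 32.2, 34.3 and 42.7 CPM in HSCs, 27.3, 26.3, 18.2 and 29.8 CPM in CLPs and 18.9, 27.6, 15.8 and 18.9 CPM in GMPs. Again only the HSC group stood apart. Hoxa10, the neighbor of Hoxa9 on the other side, had 18.4, 10.9, 10.96 and 12.8 CPM in HSCs, 2.91, 3.15, 3.62 and 2.19 CPM in CLPs and 1.07, 0.487, 1.40 and 0.898 CPM in GMPs. For this gene the 3 groups were all separate, and the 4 GMP libraries held between 7 and 17 reads.

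The more anterior Hoxa members lay between these patterns. Hoxa3, known for its part in thymus and parathyroid development, averaged 31.7 ± 5.52 CPM in HSCs, 12.05 ± 0.944 CPM in CLPs and 4.39 ± 1.22 CPM in GMPs (SD, n = 4 in each group). Hoxa5 averaged 20.2, 6.68 and 2.31 CPM and Hoxa6 averaged 12.3, 5.51 and 2.32 CPM in the same order. For Hoxa3, Hoxa5 and Hoxa6, as for Hoxa10, none of the 3 cell types overlapped in O-WT.

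**Figure D1:**
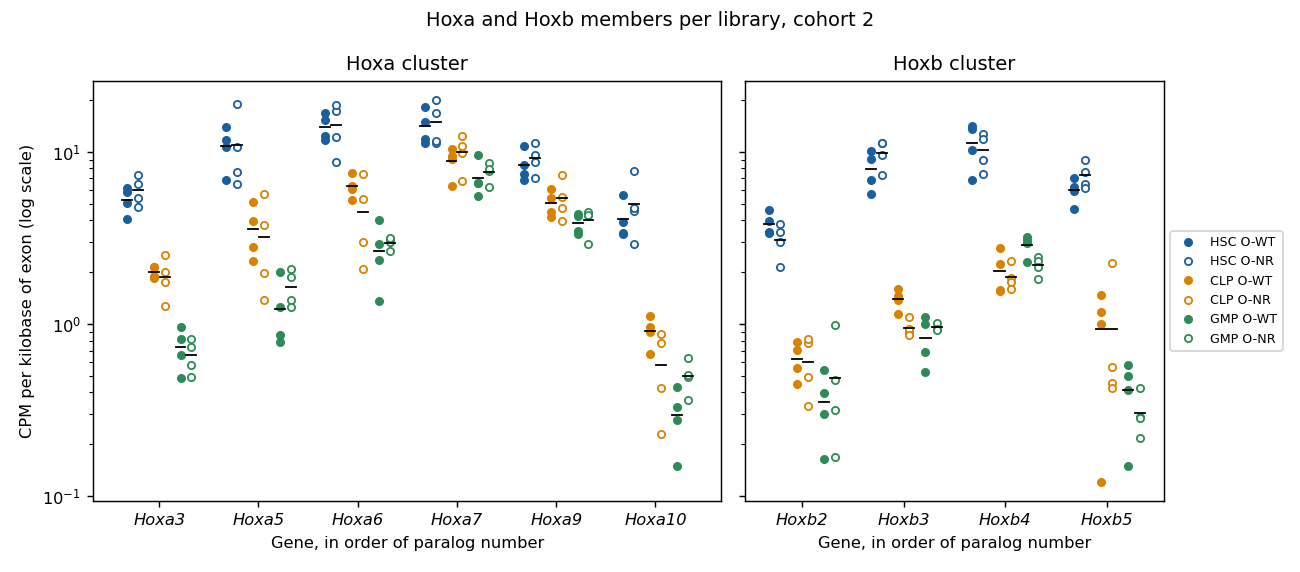
Level of each member in every cohort 2 library, as CPM per kilobase of exon on a log scale, by cell type and treatment. In O-WT the mean of Hoxa7 went from 14.03 in HSCs to 7.05 in GMPs, whereas that of Hoxa10 went from 4.06 to 0.295.

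Among the Hoxb members in O-WT, Hoxb4 was the one with a higher mean in GMPs than in CLPs. Hoxb4 had 36.4, 17.7, 26.4 and 34.6 CPM in the O-WT HSC libraries, 7.06, 4.04, 3.99 and 5.72 CPM in CLPs and 7.91, 7.59, 5.91 and 8.18 CPM in GMPs. The HSC group was separate, and 3 of the 4 GMP libraries were above all CLP libraries. Hoxb3, the next gene on the 3′ side, had 42.8, 24.1, 29.2 and 38.6 CPM in HSCs, 6.16, 5.84, 4.86 and 6.81 CPM in CLPs and 2.23, 2.92, 4.27 and 4.67 CPM in GMPs, with no overlap between any of the cell types. Hoxb5 had 19.6, 12.9, 16.4 and 17.5 CPM in HSCs, 3.25, 0.337, 4.11 and 2.77 CPM in CLPs and 1.15, 0.418, 1.40 and 1.62 CPM in GMPs. The lowest CLP value of Hoxb5 rested on 3 reads and lay below every GMP library. Hoxb2 averaged 13.4 CPM in HSCs, 2.18 CPM in CLPs and 1.22 CPM in GMPs.

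Each member was tested between cell types in one edgeR quasi-likelihood fit of the 12 O-WT libraries, with Benjamini-Hochberg adjustment over all 20044 genes. Against CLPs, 10 of 10 members were higher in HSCs at an adjusted p below 0.05, where 30.3% of all genes passed and 19.9% passed with the higher level in HSCs. The log2 fold change was smallest for Hoxa7 (0.64, SE 0.18, adjusted p = 0.00558) and Hoxa9 (0.71, SE 0.15, adjusted p = 0.000594), which is 1.56-fold and 1.64-fold. It was 1.13 to 1.57 for Hoxa6, Hoxa3 and Hoxa5 and 2.11 for Hoxa10. All 4 Hoxb members had larger values, from 2.43 (Hoxb4, SE 0.22) to 2.63 (Hoxb5, SE 0.41). The median over the members was 1.84, against −0.08 over all genes. The O-WT groups did not overlap for 10 of 10 members, and for 24.1% of all genes.

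Against GMPs, 10 of 10 members were again higher in HSCs, where 44.2% of all genes passed and 21.5% passed in this direction. Hoxa7 (log2 fold change 0.98, SE 0.18, adjusted p = 3.66e-05) and Hoxa9 (1.11, SE 0.15, adjusted p = 8.1e-07) were higher in HSCs by 1.97-fold and 2.17-fold. Hoxb4 followed with 1.95 (SE 0.21). The other members lay between 2.42 and 3.87, with 3.78 (SE 0.35) for Hoxa10 and 3.87 (SE 0.43) for Hoxb5, which is 13.7-fold and 14.7-fold. The median was 2.98 against 0.31 over all genes, and that all-gene value was 0.13 with RLE and 0.58 with upper quartile scaling, so that the members' values stand relative to a shift of this size. Groups did not overlap for 10 of 10 members and for 46.8% of all genes.

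The filter of more than 3 CPM in at least 4 libraries, on totals without TMM scaling, bears on these counts. Hoxa10, Hoxb2 and Hoxb5 passed it only together with the HSC libraries, and no GMP library had more than 3 CPM of any of them, so that these genes had to differ between HSCs and GMPs. Hoxa7, Hoxa9 and Hoxb4 were above 3 CPM in all 24 libraries of cohort 2. In a fit without any filter 9 of 10 members were called against CLPs (8.97% of all genes, 5.93% in this direction) and 10 of 10 against GMPs (13.9% and 5.61%). The one not called was Hoxa7 against CLPs (log2 fold change 0.73, adjusted p = 0.0642). The direction of the calls over all genes depended on the scaling. Against CLPs 3986 genes were higher and 2080 lower in HSCs with TMM, 3199 and 2418 with RLE, and 3039 and 3187 with upper quartile scaling. Against GMPs there were 4319 higher and 4531 lower with TMM, 3356 and 5024 with RLE, and 6105 and 3727 with upper quartile scaling. All 10 members stayed higher in HSCs under all 3 scalings.

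**Figure D2:**
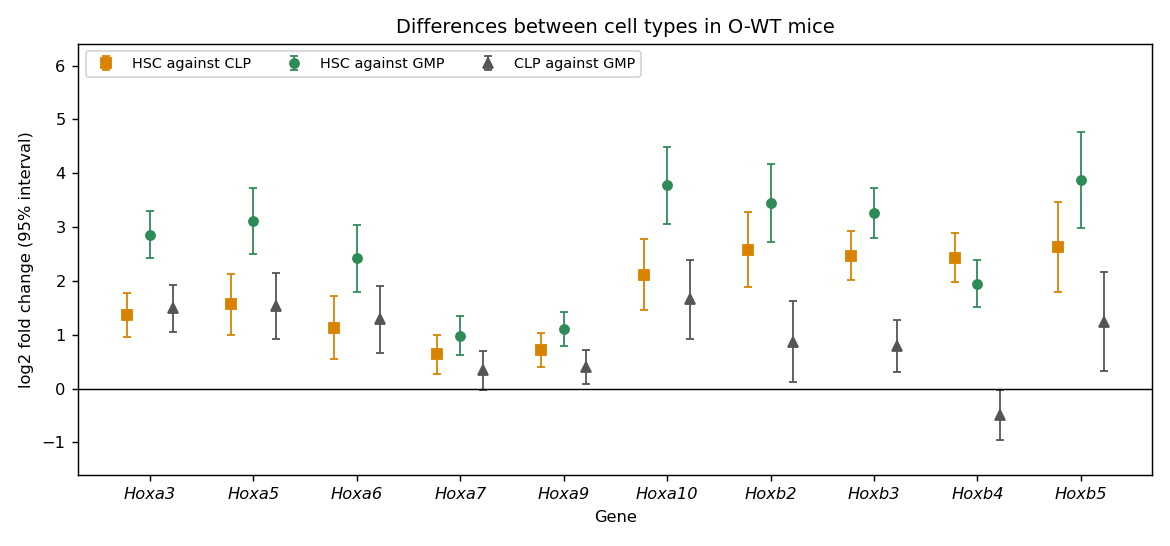
Log2 fold change of each member between cell types, with 95% intervals from the edgeR fits. In O-WT, Hoxa7 and Hoxa9 had the smallest differences between HSCs and GMPs (0.98 and 1.11) and Hoxa10 and Hoxb5 the largest among the members (3.78 and 3.87).

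Between CLPs and GMPs the members divided. In O-WT, 8 of 10 were higher in CLPs, where 60.8% of all genes passed and 32.2% passed with the higher level in CLPs. The largest differences among the members were those of Hoxa10 (log2 fold change 1.66, SE 0.36), Hoxa5 (1.54, SE 0.30), Hoxa3 (1.49, SE 0.21), Hoxa6 (1.29, SE 0.30) and Hoxb5 (1.24, SE 0.45, adjusted p = 0.0207). Those of Hoxb2 (0.87, adjusted p = 0.0419), Hoxb3 (0.79) and Hoxa9 (0.41, adjusted p = 0.028) were smaller, the last being close to the all-gene median of 0.28. Hoxa7 (0.34, adjusted p = 0.0935) and Hoxb4 (−0.49, SE 0.23, adjusted p = 0.0645) did not pass. Hoxb4 was the member with a negative value, and without a filter it passed as lower in CLPs (−0.80, adjusted p = 0.024), beside 5 members called higher (18.9% of all genes, 7.18% higher in CLPs). The groups did not overlap for 5 of 10 members and for 51.1% of all genes. Hoxa10, Hoxb2 and Hoxb5 entered this test only through the HSC libraries of the shared fit. On totals without TMM scaling they had over 3 CPM in 3, 2 and 2 of the CLP libraries and in 0 GMP libraries.

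These smaller differences depended on the settings and on single libraries. The count of 8 became 5 without GMP O-WT replicate 1 and likewise without replicate 2. Hoxa9 lost its call in 7 and Hoxb2 in 6 of 12 fits that each left out 1 library. With the library number as a block, Hoxb2 lost its call (0.89, adjusted p = 0.0539). Over all genes, 6447 were higher and 5737 lower in CLPs with TMM, 5880 and 6141 with RLE, and 10281 and 3163 with upper quartile scaling. With RLE 6 members were higher and 1 lower, with upper quartile scaling 9 were higher.

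Within a cluster the makeup of the transcripts differed between cell types. Per kilobase of exon, the order in O-WT HSCs was Hoxa7 (14.03), Hoxa6 (14.02), Hoxb4 (11.2), Hoxa5 (10.8), Hoxa9 (8.38), Hoxb3 (7.92), Hoxb5 (5.96), Hoxa3 (5.27), Hoxa10 (4.06) and Hoxb2 (3.83 CPM per kilobase). Each neighbor in this order overlapped the next over the 4 libraries. The length used is that of all annotated exons of a gene, merged over its transcripts. The orders, gaps and shares per kilobase given here therefore depend on which transcripts are annotated. By CPM alone, Hoxa9 had the highest mean of the members in O-WT HSCs (46.8) and Hoxa6 the lowest (12.3). In CLPs Hoxa7 (8.84) and Hoxa6 (6.31) again led, and the first gap without overlap came between Hoxa3 (2.00) and Hoxb3 (1.39). In GMPs Hoxa7 (7.05) was apart from Hoxa9 (3.86), and Hoxa9 from the next gene, Hoxb4 (2.88), though not from Hoxa6 (2.65), and each further neighbor overlapped the next, down to Hoxa10 at 0.295. The 9 Hoxd genes, none of which passed the filter, had a median of 0.192 ± 0.081 CPM per kilobase in GMPs (SD, n = 4), so that Hoxa10, Hoxb2 (0.35) and Hoxb5 (0.411) were near the level of genes with few or no transcripts there. In CLPs the Hoxd median was higher (0.404 ± 0.100), beside 0.907 for Hoxa10, 0.625 for Hoxb2 and 0.94 for Hoxb5. The part of this shift in the differences of these 3 members between CLPs and GMPs was not tested.

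Hoxa7 and Hoxa9 together made up 35.6% to 41.4% of the Hoxa members' CPM per kilobase in O-WT HSCs, 48.2% to 56.1% in CLPs and 63.0% to 79.5% in GMPs. The 3 ranges did not overlap. In O-NR the means were 40.7%, 61.1% and 66.6%, and the CLP range (54.2% to 74.6%) overlapped that of GMPs. Hoxb4 made up 38.3% of the Hoxb members in O-WT HSCs, 40.4% in CLPs and 64.7% in GMPs. Among O-WT libraries, those of GMPs (58.0% to 72.2%) were above all others. This separation was not seen after NR, where GMP libraries (50.5% to 60.9%) overlapped CLP libraries (30.2% to 57.8%). In O-WT the Hoxb members were 33.7% of all members' CPM per kilobase in HSCs, 15.8% in CLPs and 22.1% in GMPs. After NR this share was 16.1% to 20.4% for GMP libraries, within the 11.4% to 23.2% of CLP libraries. These shares are given as descriptions and were not tested.

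**Figure D3:**
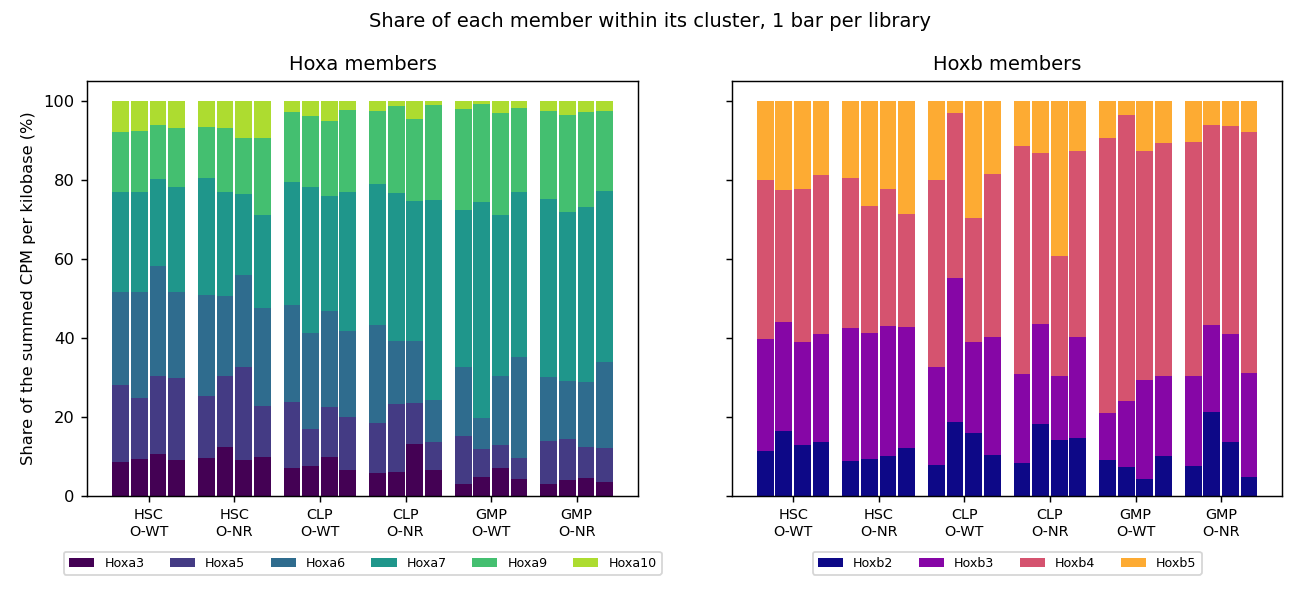
Share of each member in the summed CPM per kilobase of its cluster's members, for each of the 4 libraries per group in cohort 2. In O-WT the mean Hoxa7 share went from 24.8% in HSCs to 44.2% in GMPs and the mean Hoxa10 share from 7.14% to 1.94%.

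The O-NR libraries, which share no library with O-WT, gave the same directions for the HSC comparisons. Against CLPs 10 of 10 members were higher in HSCs (40.9% of all genes, 22.6% in this direction), and against GMPs also 10 of 10 (46.4% and 22.0%). In O-NR, Hoxa6, Hoxa10, Hoxb2 and Hoxb5 passed the filter only together with the HSC libraries. On totals without TMM scaling, which the filter uses, none of them had over 3 CPM in any GMP library, so that they had to differ from GMPs. With that scaling Hoxb2 reached at most 3.43 CPM there. Without a filter 10 of 10 were called against CLPs (13.6% of all genes, 9.02% in this direction) and 10 of 10 against GMPs (14.2% and 6.88%). Hoxa7 was smallest in both, with log2 fold changes of 0.50 (SE 0.17) and 0.91 (SE 0.17). Without HSC O-NR replicate 1 or 3, or CLP O-NR replicate 3 or 4, the call of Hoxa7 against CLPs was lost, with values down to 0.33. Hoxb3 was largest against CLPs (3.29, SE 0.18) and Hoxb5 against GMPs (4.52, SE 0.43). The O-NR groups did not overlap for 8 of 10 members against CLPs (29.5% of all genes), Hoxa7 and Hoxa9 being those that did, and for 10 of 10 against GMPs (50.1%).

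Between CLPs and GMPs of O-NR, 4 of 10 members were called, all higher in CLPs (50.1% of all genes, 23.9% in this direction). They were Hoxb5 (log2 fold change 1.61, SE 0.46), Hoxa3 (1.54, SE 0.22), Hoxa5 (0.96, SE 0.35) and Hoxa9 (0.44, SE 0.16). Hoxb5 rested on 1 library, since the CLP O-NR libraries had 1.27, 1.57, 6.33 and 1.18 CPM and the GMP O-NR libraries 1.19, 0.798, 0.606 and 0.788 CPM. Without the third of these CLP libraries its value was 0.66 and not called. The count became 2 without CLP O-NR replicate 1 or 2, or GMP O-NR replicate 3 or 4. With the library number as a block Hoxa7 was called as well (0.41, adjusted p = 0.045). Hoxb4 did not pass (−0.20, SE 0.22, adjusted p = 0.442). Its mean in O-NR was 4.80 CPM in CLPs and 5.61 CPM in GMPs, and that of Hoxb3 was 4.02 and 4.06 CPM. Hoxa3 was the 1 member whose groups did not overlap, against 45.9% of all genes.

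NR supplementation was compared with no treatment within each cell type, where a gene is called at an unadjusted p below 0.01. This p threshold is one that the study lists, and the fold change cutoff it lists beside it was not applied here. In HSCs of cohort 2, 0 of 10 members were called by edgeR, and 0.777% of all genes were. At an unadjusted p below 0.05 there were 2 of 10 members, Hoxb3 and Hoxb2, with values of opposite sign, and 4.06% of all genes. Hoxb3 had 42.8, 24.1, 29.2 and 38.6 CPM in O-WT and 48.0, 31.2, 47.9 and 40.6 CPM in O-NR. Its log2 fold change was 0.24 (95% interval 0.01 to 0.47, adjusted p = 0.995 over 17364 genes). Hoxb2 had 13.8, 11.8, 11.9 and 15.9 CPM in O-WT and 10.4, 7.42, 11.9 and 13.2 CPM in O-NR, with a log2 fold change of −0.41 (95% interval −0.80 to −0.02, adjusted p = 0.995). The groups overlapped for both genes, and for 10 of 10 members, where 1.21% of all genes did not overlap. The other 8 members had log2 fold changes between −0.20 (Hoxb4) and 0.22 (Hoxb5). DESeq2 also called 0 members at this threshold. The 8 markers of B and plasma cells, all of them counted in these groups, summed to 133 to 674 CPM in the O-WT and to 61.7 to 125 CPM in the O-NR HSC libraries, without overlap, and their part in the values of the members was not tested.

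In CLPs, 8 members were tested, Hoxb2 and Hoxb5 being under the filter, and 0 were called by edgeR at any threshold down to an unadjusted p below 0.05 (0.412% of all genes at the threshold of 0.01). Hoxb3 was the 1 member whose groups did not overlap, against 2.32% of all genes. It had 6.16, 5.84, 4.86 and 6.81 CPM in O-WT and 3.81, 4.63, 3.97 and 3.66 CPM in O-NR, between 32 and 81 reads per library. The log2 fold change was −0.64 (95% interval −1.40 to 0.13, adjusted p = 1). The others lay between −0.75 (Hoxa10) and 0.09 (Hoxa7). In GMPs 5 members were tested and 0 were called, also at an unadjusted p below 0.05 (0.986% of all genes at 0.01). Hoxb4 had 7.91, 7.59, 5.91 and 8.18 CPM in O-WT and 6.28, 5.99, 4.68 and 5.51 CPM in O-NR, with a log2 fold change of −0.41 (95% interval −0.84 to 0.03, adjusted p = 0.997). The groups overlapped for all 10 members, against 2.1% of all genes that did not. DESeq2 called 0 members in CLPs and in GMPs. The members left out by the filter had log2 fold changes of −0.06 and −0.08 in CLPs and of −0.43 to 0.74 in GMPs in a fit without it, none with p below 0.05.

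**Figure D4:**
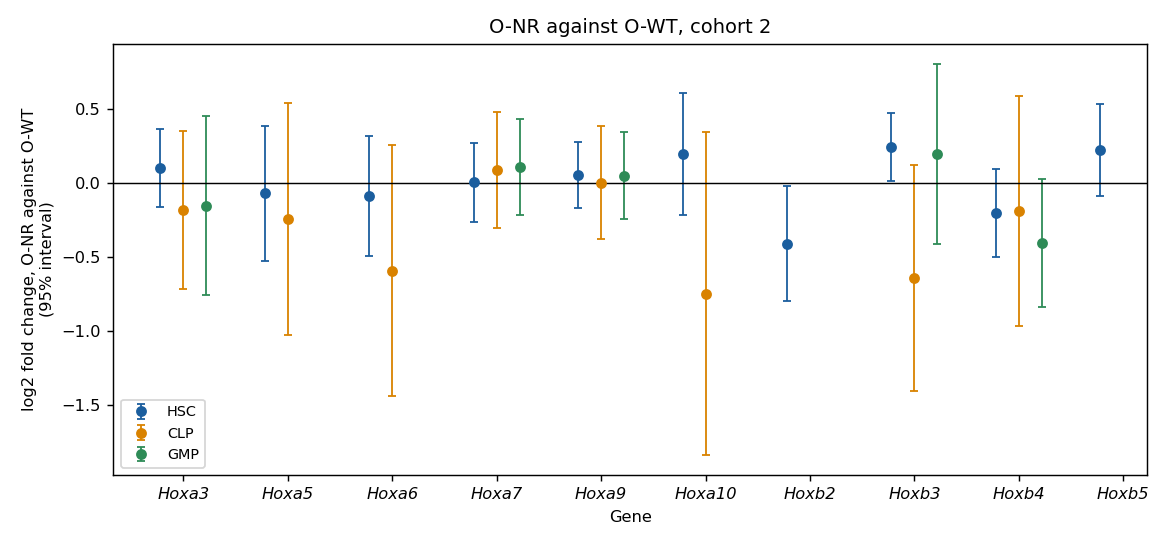
Log2 fold change of O-NR against O-WT for each member in the 3 cell types of cohort 2, with 95% intervals, where the gene passed the filter. Values lie between −0.75 and 0.24, and the intervals exclude 0 only for Hoxb2 and Hoxb3 in HSCs.

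Whether the NR effect differed between cell types was tested over all 24 libraries. Between HSCs and CLPs 1 of 10 members was called (0.403% of all genes), Hoxb3, whose log2 fold change was higher in HSCs by 0.88 (95% interval 0.23 to 1.52, adjusted p = 1). For CLPs less GMPs 1 of 10 was called (0.403% of all genes), Hoxa10, with a difference of −1.43 (95% interval −2.48 to −0.38, adjusted p = 0.992). Hoxa10 had 2.54, 1.39, 2.85 and 0.753 CPM in CLPs and 1.61, 2.08, 1.65 and 1.18 CPM in GMPs of O-NR, which is 7 to 26 reads per library. Between HSCs and GMPs 0 of 10 were called by edgeR and by DESeq2, with 0 at an unadjusted p below 0.05 in edgeR (0.146% of all genes at 0.01). Both calls were lost when single libraries were left out, that of Hoxb3 in 6 and that of Hoxa10 in 10 of 24 fits, as given further under the processing alternatives.

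In cohort 1 the HSC libraries fell apart in a way the groups do not give. O-NR replicates 1 and 2 and O-NR-RC replicates 2 and 3 had summed Hoxa members of 114 to 120 CPM and summed Hoxb members of 43.0 to 47.2 CPM. The other 5 libraries had 171 to 294 CPM and 75.1 to 99.5 CPM. Hoxa9, for example, had 61.6 and 47.7 CPM in O-WT, 30.4, 30.1, 58.7 and 64.0 CPM in O-NR and 86.2, 29.3 and 30.4 CPM in O-NR-RC. The same 4 libraries had the lowest sums of HSC markers (650 to 747 CPM, against 1193 to 1851 CPM in the other 5) and the highest sums of the 9 Hoxd genes (33.1 to 36.1 CPM, against 19.8 to 27.7 CPM). In the HSC libraries of cohort 2 the Hoxd sum was 3.9 to 8.4 CPM. Within both groups of that cohort, libraries with more of the HSC markers also had more of the Hoxa members. In order of replicate, O-WT had marker sums of 1855, 1010, 1115 and 1421 CPM beside Hoxa sums of 209, 129, 155 and 165 CPM. O-NR had 1669, 1119, 1916 and 1427 CPM beside 195, 136, 233 and 154 CPM. The part of these differences in the results for the members of either cohort was not tested.

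**Figure D5:**
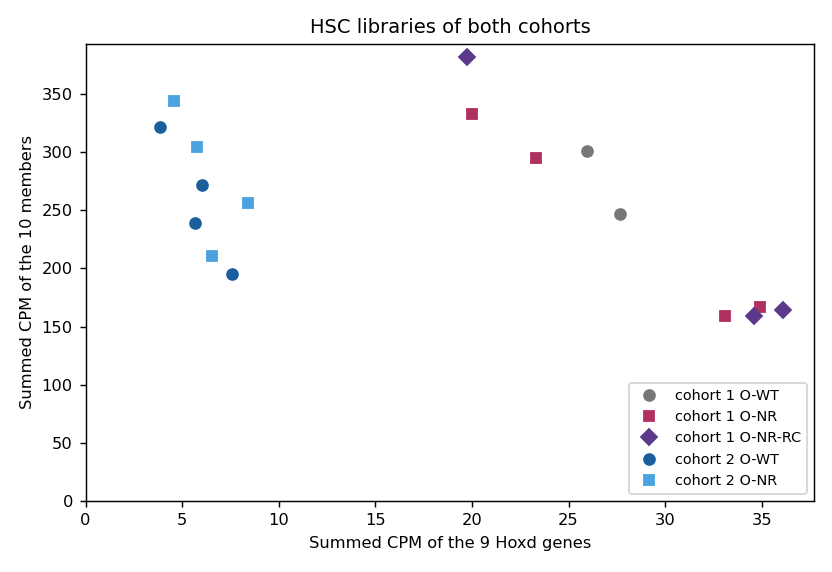
Summed CPM of the 10 members against summed CPM of the 9 Hoxd genes in each of the 17 HSC libraries, by cohort and group. O-NR replicates 1 and 2 and O-NR-RC replicates 2 and 3 of cohort 1 lie at the right with over 30 CPM of Hoxd genes and the lowest sums of members in that cohort.

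With all 9 libraries of cohort 1, 0 of 10 members were called in each of the 3 comparisons by edgeR, also at an unadjusted p below 0.05, and 0 by DESeq2. Of all genes 0.048% were called between O-NR and O-WT, 0.0251% between O-NR-RC and O-NR and 0.078% between O-NR-RC and O-WT. The log2 fold changes ran from −0.41 (Hoxb3) to 0.10 (Hoxb4) for O-NR against O-WT, with SEs of 0.29 to 0.49. They ran from −0.41 (Hoxb4) to 0.26 (Hoxa7) for O-NR-RC against O-NR, and from −0.50 (Hoxb3) to 0.11 (Hoxb2) for O-NR-RC against O-WT. For every member the groups overlapped, whereas 5.56%, 1.11% and 7.78% of all genes did not overlap. Hoxa7 had 31.7, 31.1, 54.0 and 66.3 CPM in O-NR and 99.4, 29.98 and 35.6 CPM in O-NR-RC. Its value for O-NR-RC against O-NR rested on the first O-NR-RC library, being 0.26 with it and −0.48 without it.

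The direction of most members in cohort 1 turned with the 4 libraries that have over 30 CPM of Hoxd genes. Leaving them out, a choice made after seeing the data, also removes the libraries with the lowest members, so that the values follow in part from the choice and are given as a description. It left 2, 2 and 1 libraries, the lone O-NR-RC library being assumed to vary like the others. For O-NR against O-WT 9 of 10 members were then above 0 (median 0.12), where 1 was with all libraries (median −0.17). For O-NR-RC against O-WT 8 were above 0 (median 0.29), where 1 was with all libraries (median −0.21), and for O-NR-RC against O-NR 6 were (median 0.10), where 3 were (median −0.11). Hoxb4 passed the threshold for O-NR against O-WT (log2 fold change 0.59, adjusted p = 0.155). The 2 remaining O-NR libraries had 32.98 and 40.7 CPM of it and the O-WT libraries 23.2 and 24.2 CPM. These O-NR libraries, replicates 3 and 4, were a close pair in the check for duplicates (chi-square 3.65 per degree of freedom). Whether they are independent is not given in the sources used here. Hoxa7 passed for O-NR-RC against O-NR (0.64) and, with Hoxa9 (0.55), against O-WT (0.67), where the lone O-NR-RC library is the one with the highest levels of both genes in cohort 1. Of all genes 1.92% passed between O-NR and O-WT, 3.92% between O-NR-RC and O-NR and 11% between O-NR-RC and O-WT.

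When the HSCs of the 2 cohorts were fitted together (14 libraries, O-NR-RC left out) with a term for the cohort, 0 of 10 members were called by edgeR, also at an unadjusted p below 0.05, and 0 by DESeq2 (0.103% of all genes in edgeR). The values ran from −0.25 (Hoxb2, 95% interval −0.57 to 0.07) to 0.07 (Hoxa10), with Hoxb3 at 0.01. The NR effect in cohort 2 less that in cohort 1 gave 0 of 10 calls (0.137% of all genes) and 0 by DESeq2. With the replicate number, which these libraries only share as a number, as a block 4 of 10 were called, all higher in cohort 2 (16.3% of all genes). Cohort 1 O-WT has only replicates 1 and 2, so with this block the NR effect of cohort 1 rests on these numbers. Both O-NR libraries with these numbers are among the 4 that are high in Hoxd genes and low in the members. With upper quartile scaling 1 was called (0.239%), and without the 4 libraries high in Hoxd genes 1, Hoxb4 in the opposite direction (−0.75, 0.249%). In the edgeR fit of all 14 libraries with TMM scaling and no block, Hoxb3 alone had an unadjusted p below 0.05 for this difference. Its value was 0.63 (95% interval 0.06 to 1.21, adjusted p = 0.979). Hoxb3 made up 25.9% to 28.5% of the Hoxb members per kilobase in O-WT HSCs of cohort 2 and 30.5% to 33.6% in O-NR. In cohort 1 the ranges lay the other way, with 22.7% to 25.3% in O-WT, 18.6% to 21.8% in O-NR and 20.8% to 22.0% in O-NR-RC. These shares were not tested.

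Of the other genes in the 4 Hox clusters, Hoxb6, Hoxb8 and Hoxb9 were also called higher in HSCs than in both progenitors. Hoxb6 averaged 31.5 ± 7.57 CPM in O-WT HSCs, 3.49 ± 0.614 CPM in CLPs and 1.63 ± 0.603 CPM in GMPs (SD, n = 4), a log2 fold change of 3.14 against CLPs and 4.28 against GMPs. Hoxb8, known for holding myeloid progenitors in an immature state when overexpressed, averaged 15.5 CPM in HSCs and 0.377 and 0.545 CPM in CLPs and GMPs (5.26 and 4.80). Hoxb9 averaged 7.14, 1.41 and 0.633 CPM (2.28 and 3.49). Hoxb7 was lower in count, with 4.96, 2.14 and 2.80 CPM, and was called against CLPs (1.16, adjusted p = 0.0293) but not against GMPs (0.83, adjusted p = 0.0839). In all, 4 of the 6 other Hoxb genes were tested, of which 4 were called higher in HSCs than in CLPs (19.9% of all genes) and 3 than in GMPs (21.5%). Hoxb8 and Hoxb9, at no more than 0.696 and 2.44 CPM in the O-WT progenitors, passed the filter only through the HSC libraries, so that they had to differ. Of the 5 other Hoxa genes 1 was tested, Hoxa4, with 4.67, 2.38 and 1.42 CPM and a call against GMPs (1.72, adjusted p = 0.00129) but not against CLPs (0.96, adjusted p = 0.0785). Of the 9 Hoxc genes 2 were tested, with 0 called higher in HSCs than in CLPs and 1 than in GMPs, and of the 9 Hoxd genes 0 were tested.

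Transcripts of the opposite strand overlap several members, and whether reads were counted by strand is not stated. Hoxb3os covers part of the exons of Hoxb3 (52.9% of their bases lie under an exon of the other strand) and of Hoxb2 (27.3%). The share was 25.4% for Hoxa3, 20.4% for Hoxa7 and 3.6% for Hoxb5, and 0 for the other members. Hoxb3os itself averaged 7.94 CPM in O-WT HSCs, 3.04 CPM in CLPs and 3.20 CPM in GMPs, and was called higher in HSCs against both (log2 fold changes 1.34 and 1.32). Without strand, its reads and those of Hoxb3 cannot be told apart in the shared bases. Hoxa3 shares 8.0% of its exon bases with Gm28308 and Hoxa9 1.5% with Mir196b on the same strand.

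The partners and regulators of the Hox genes were taken as 3 lists, to be read against the 30.3% of all genes called between HSCs and CLPs, 44.2% between HSCs and GMPs and 60.8% between CLPs and GMPs of O-WT. Of the 9 TALE cofactors, 4 were higher and 1 lower in O-WT HSCs than in CLPs, and 6 higher and 1 lower than in GMPs. Meis1, which binds with Hoxa9 and Pbx proteins, averaged 445 CPM in HSCs, 61.5 CPM in CLPs and 42.2 CPM in GMPs (log2 fold changes 2.83 and 3.39). In CLPs 4 were higher and 0 lower than in GMPs, with Meis3 at 1.92 and Pknox2 at 0.89.

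Of the 15 genes of the MLL and acetyltransferase list 14 were tested. In HSCs 4 were higher and 1 lower than in CLPs, a share near the 30.3% of all genes, and 4 higher and 6 lower than in GMPs (44.2% of all genes). Mllt3, a reader of acetylated histones that is a common MLL fusion partner, averaged 247, 28.9 and 20.7 CPM in HSCs, CLPs and GMPs (log2 fold changes 3.05 and 3.57). Dot1l, the H3K79 methyltransferase recruited by such fusions, was lower in HSCs than in GMPs (−1.26, SE 0.18), and Aff4 was higher in HSCs than in CLPs (1.22). In CLPs 1 was higher and 10 lower than in GMPs, among them Brpf1 (−1.01) and Aff1 (−1.09). Of the 18 Polycomb genes 8 were higher and 4 lower in HSCs than in CLPs (30.3% of all genes called), and 6 higher and 7 lower than in GMPs (44.2%). Cbx7, a reader subunit of the PRC1 complex, averaged 56.8, 10.7 and 7.58 CPM (2.36 and 2.88), whereas Ezh2, the H3K27 methyltransferase of PRC2, averaged 46.5, 177 and 181 CPM (−1.93 and −1.95). Between CLPs and GMPs 3 were higher and 5 lower in CLPs, with Cbx2 at 1.79 and Jarid2 at −1.07. After NR 0 genes of each list were called in any cell type by edgeR.

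The members followed each other over the 24 libraries of cohort 2, which differ in cell type, so that these correlations describe the cell type pattern. Pearson's r of log2 CPM between pairs of members ran from 0.655 (Hoxa7 and Hoxb5) to 0.949 (Hoxa10 and Hoxb3), with 0.922 for Hoxa7 and Hoxa9. Among 22547 genes outside the Hox clusters, those closest to the mean of the Hoxa members were Rab6b (r = 0.985), Gata3 (0.983), Eya2 (0.980), Zbtb20 (0.979) and Pear1 (0.978). Gata3, a zinc finger factor of T cells that HSCs also express, averaged 33.4 CPM in O-WT HSCs, 8.82 CPM in CLPs and 2.87 CPM in GMPs. Those closest to the mean of the Hoxb members were Med12l (0.989), Tgm2 (0.988), Clca3a1 (0.987), Srgap3 (0.984) and Plekha5 (0.984). Med12l, a paralog of a Mediator kinase module subunit, averaged 288, 36.3 and 24.1 CPM in the same order.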

How the data were processed

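The 33 libraries of total RNA were made by the authors with a stranded total RNA kit, trimmed with cutadapt, aligned with STAR to mm10 with Gencode features and counted per gene with featureCounts. The deposited values are raw counts for 55376 gene symbols, neither normalized nor pooled. The strand setting and the treatment of reads mapping to several places are not given in the sources used here. The 10 members, the gene lists and the rule for naming genes were chosen with earlier results of these data known. Named were all members, other genes of the Hox clusters above 3 CPM in at least 4 libraries of cohort 2, up to 2 genes per regulator list and O-WT comparison with the smallest p, and the 5 genes most like each cluster's mean. One gene that this rule names is not reported here.

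Counts were analysed with edgeR 4.0.16 in R 4.3.3 (TMM scaling, genes above 3 CPM in at least the number of libraries of the smaller group, quasi-likelihood test), with SE from the log2 fold change and its F value. Cell types were compared in one fit per treatment (called at a Benjamini-Hochberg adjusted p below 0.05), NR within each cell type and cohort (called at an unadjusted p below 0.01). Differences in the NR effect were tested as interactions. DESeq2 1.42.0, other scalings and filters, a block for the replicate number and leaving out each library were tried as alternatives. Coordinates and exon lengths are from Gencode M21 (GRCm38), in which 54510 symbols were found, and sequences from RefSeq (GRCm38.p6).

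Same-numbered libraries of the cell types share a number in the names of the deposited files, whose meaning is not given in the sources used here. Their deviations from the group means correlated at 0.122 to 0.367 between HSCs and CLPs of O-WT but not over 0.1 for every pair elsewhere in cohort 2. In cohort 1, same-numbered HSC libraries correlated at 0.461 and 0.492 between O-WT and O-NR-RC and at −0.842 to 0.794 between the other groups. Replicates were checked for duplicates, with chi-square values of at least 1.91 per degree of freedom over 46 pairs, and all were kept. In cohort 1 the value was 1.91 for O-NR replicates 1 and 2, 3.65 for O-NR 3 and 4 and 3.76 for O-NR-RC 2 and 3. The other pairs of these groups had 48.6 to 92.7. The cohort 1 fits treat every library as a separate replicate, and whether the close pairs are independent is not given in the sources used here. The test was also run on simulated data with log2 changes of 1.5 in both directions. For HSCs against CLPs in O-WT it recovered 82.7% of the 191 changed genes among 18769 tested. In the real libraries 6066 of 20044 genes were called there, so this share need not hold for that comparison. For NR in HSCs it recovered 96.7% of 181 changed genes (16680 tested). For the difference in the NR effect between HSCs and CLPs it recovered 81.6% of 190 (20344 tested). The NR values of the members tested in cohort 2 lay between −0.75 and 0.24. These shares do not tell how often changes of that size would be found.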

Additional observations from a re-analysis of the deposited data

Results flagged for a closer look

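Within groups of 4 libraries, 3 of 70 combinations of member and group held a value far from the other 3 (Dixon's test, which flags about 1 in 20 groups by chance). Hoxa9 had 16.3 CPM in GMP O-NR replicate 4, against 23.9 to 24.9 CPM in the others. Hoxb3 had 4.31 CPM in GMP O-NR replicate 2, where the others lay between 3.94 and 3.99 CPM. Hoxb5 had 6.33 CPM in CLP O-NR replicate 3, against 1.18 to 1.57 CPM, and this library carries the call of Hoxb5 between CLPs and GMPs of O-NR.

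The effect of NR differed between cell types for 2 members at an unadjusted p below 0.01, where 0.403% of all genes passed in each of both comparisons. For Hoxb3 the log2 fold change in HSCs less that in CLPs was 0.88, and for Hoxa10 that in CLPs less that in GMPs was −1.43. Neither passed the edgeR test after adjustment over all genes (adjusted p = 1 and 0.992). The first was also lost with RLE scaling, a filter at 1 CPM, no filter or the replicate number within treatment as a block, and the second with RLE, DESeq2 or the filter at 1 CPM.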

How the results depend on the processing

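The calls of the members between HSCs and either progenitor held under every alternative listed here except those of Hoxa7 against CLPs, which did not pass in O-WT without a filter or in O-NR without some single libraries. Of the values that single members gave under alternatives other than leaving out a library, 495 kept their direction and side of the threshold, 11 newly passed, 27 no longer passed and 15 reversed. Mean levels under 3 CPM in the progenitors limit Hoxa10, Hoxb2 and Hoxb5, and the cause of the changes below was not tested.

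Between CLPs and GMPs of O-NR 2 members were called with a filter at 1 CPM. The call of Hoxb3 for the difference in the NR effect between HSCs and CLPs was lost (0 members) with RLE scaling, a filter at 1 CPM, no filter, or the number within treatment as a block. For that between CLPs and GMPs 0 members were called with RLE, DESeq2 or the filter at 1 CPM and 2 with upper quartile scaling. Between cohorts 4 were called with the replicate block (Hoxb3 at 1.02), where only replicates 1 and 2 bear on the NR effect of cohort 1. With upper quartile scaling 1 was called, and 1 without the libraries high in Hoxd genes (Hoxb4, lower in cohort 2). Without these libraries cohort 1 gave 1 call for O-NR against O-WT, 1 for O-NR-RC against O-NR and 2 for O-NR-RC against O-WT.

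Among the single values followed through all settings, those that reversed were Hoxa7 between CLPs and GMPs of O-WT (−0.0047 without a filter), Hoxb4 between those of O-NR (0.13 with upper quartile scaling) and Hoxb3 between those of O-NR (−0.0356 with RLE, −0.0354 with DESeq2, −0.19 with the filter at 1 CPM and with none, −0.0113 in one model of 24 libraries). For NR in HSCs they were Hoxa5 (0.0254) and Hoxa6 (0.0245) in one model of 24 libraries, and Hoxa7 (−0.0305 with upper quartile scaling, −0.0088 with the replicate block). Over both cohorts Hoxb3 became −0.0054 with upper quartile scaling, −0.0022 with the filter at 1 CPM, −0.0073 without a filter and −0.0611 with the replicate block.

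Leaving out each library in turn gave 5 to 9 members called between CLPs and GMPs of O-WT, 2 to 5 in O-NR, 0 to 1 for the difference between HSCs and CLPs in the NR effect, 0 to 2 for that between CLPs and GMPs, and 0 to 1 between cohorts, the 1 being Hoxb3 without O-NR replicate 4 of cohort 1. The call of Hoxb3 was lost without HSC O-WT 2 or 3, HSC O-NR 4, CLP O-WT 2 or CLP O-NR 1 or 3, and 0 members were called for CLPs against GMPs without HSC O-NR 4, CLP O-WT 2 or 3, CLP O-NR 2 or 4, GMP O-WT 2 or GMP O-NR 1, 2 or 3. Members that changed sign were Hoxa10 (−0.0845 to 0.46) and Hoxb3 (−0.0602 to 0.0399) between CLPs and GMPs of O-NR, Hoxa5 (−0.38 to 0.094), Hoxa6 (−0.18 to 0.0075), Hoxa7 (−0.14 to 0.0916) and Hoxa10 (−0.0122 to 0.31) for NR in HSCs, Hoxa7 for O-NR-RC against O-NR (−0.48 to 0.55) and Hoxb3 over both cohorts (−0.063 to 0.0827).

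O-WT and O-NR libraries share only a number. Same-numbered HSC libraries of cohort 2 correlated at −0.276 to 0.603, and the block on this number changed no count of members for the NR comparisons other than that between cohorts, whereas the number within treatment as a block took the count for HSCs less CLPs from 1 to 0. For the cell type comparisons the block changed no other call than those of Hoxb2 in O-WT and Hoxa7 in O-NR between CLPs and GMPs.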
